A study of Mus musculus with 24 samples.

Results

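The genes described here encode the nuclear-encoded subunits of the 5 complexes of the mitochondrial respiratory chain. They were taken by symbol from the deposited table (Ndufa, Ndufb, Ndufc, Ndufs and Ndufv with a number for complex I, Sdha to Sdhd for complex II, Uqcr for complex III, Cox4 to Cox8 for complex IV and Atp5 for complex V), without pseudogenes, which gave 84 of the 24537 genes. Complex I held 37 of them, complex II 4, complex III 8, complex IV 18 and complex V 17. The pattern is one of names. It takes in Atp5s and Atp5sl, which are not structural subunits of ATP synthase, and Ndufa4, a protein named for complex I that is now placed in complex IV. It leaves out Cyc1, Cycs and Ndufab1.

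Complexes I and II pass electrons from NADH and succinate to ubiquinone, complex III passes them to cytochrome c, and complex IV passes them to oxygen. Complexes I, III and IV pump protons across the inner membrane, and complex V, the ATP synthase, uses the returning protons to make ATP. Activated T cells rely on glycolysis as well as on this chain, and CD8+ T cells raise their mitochondrial content when they are stimulated.

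The study measured RNA in mouse CD8+ T cells activated in vitro and then given a bile acid, with 3 libraries in each of 8 groups. The dose was 50 µM for LCA (lithocholic acid), IsoLCA, IsoAlloLCA, DehydroLCA and UDCA (ursodeoxycholic acid), and 100 µM for TCA and TCDCA, which both carry taurine. Control cells are labelled as such, and the labels do not name a solvent for them. Exposure lasted 24 h by the series' design text and overnight by the treatment protocol. IsoLCA differs from LCA in the orientation of the hydroxyl at carbon 3, DehydroLCA carries a ketone there, IsoAlloLCA differs from IsoLCA in the orientation at carbon 5, UDCA has a hydroxyl added at carbon 7, and TCA has a hydroxyl at carbon 12 that TCDCA lacks. Every acid was compared with the same 3 Control libraries. Nothing in the labels ties the 3 libraries of a group to different mice or cultures, so p-values measure only the spread between these libraries.

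Gene counts per library ran from 25998051 to 41024340.5. The T cell gene Cd8a stood at 557 to 774 CPM (counts scaled to library size, with TMM factors) in the 24 libraries, while Cd4 reached at most 1.16 CPM and the myeloid gene Lyz2 0.335 CPM. The 10 T cell markers summed to 4436 to 4696 CPM with LCA, 4514 to 5125 CPM with IsoAlloLCA and 4590 to 4740 CPM in Control. The 4 markers of CD4+ and regulatory T cells, most of it Zbtb7b, summed to 60.7 to 66.1 CPM with LCA, 53.6 to 58.3 CPM with IsoAlloLCA and 48.5 to 52.6 CPM in Control. The 4 NK markers, most of it Eomes, summed to 22.1 to 24.1 CPM with LCA, 15.1 to 17.5 CPM with IsoAlloLCA and 26.3 to 27.7 CPM in Control. The 6 B cell markers, most of it Cd79b, summed to 4.33 to 4.60 CPM with LCA, 4.25 to 5.23 CPM with IsoAlloLCA and 5.92 to 6.49 CPM in Control. The 8 stromal and erythroid markers, most of it Pecam1, summed to 30.9 to 37.0 CPM with LCA, 44.8 to 49.6 CPM with IsoAlloLCA and 45.4 to 52.0 CPM in Control. The 8 myeloid markers summed to at most 1.90 CPM in these groups, with C1qa at 0 in every library. Both acids lay apart from Control in the CD4+, NK and B cell sums, and LCA also in the stromal and erythroid sum. Of the other NK markers, Ncr1 reached at most 0.521 CPM, Klrb1c 1.12 CPM and Klra8 0.186 CPM. Each of these sums mostly followed the gene named for it, so they do not show a change in the number of such cells. The part of these genes in the results was not tested. With 0 mitochondrially encoded genes in the table, the subunits made inside the organelle were not analysed here. In these bulk samples, fewer cells of a type and less RNA per cell cannot be told apart.

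A minimum on counts left 79 of the 84 genes for testing. The 5 below it were Cox4i2, Cox7b2, Cox8b, Cox8c and Ndufa4l2, all with at most 10 counts in any library, and Cox7b2 and Cox8c had 0 counts in all 24 libraries. Per kilobase of transcript, the 75 genes averaging 10 CPM or more in some group ranged in Control from 8.97 to 890 CPM, with a median of 115 CPM. The highest was Atp5b, the catalytic beta subunit of the ATP synthase, and the lowest was Atp5sl. Complex I had a median of 82.0 CPM per kilobase, complex II 118, complex III 125, complex IV 222 and complex V 222. The levels per transcript length show the order within each complex.

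**Figure D1:**
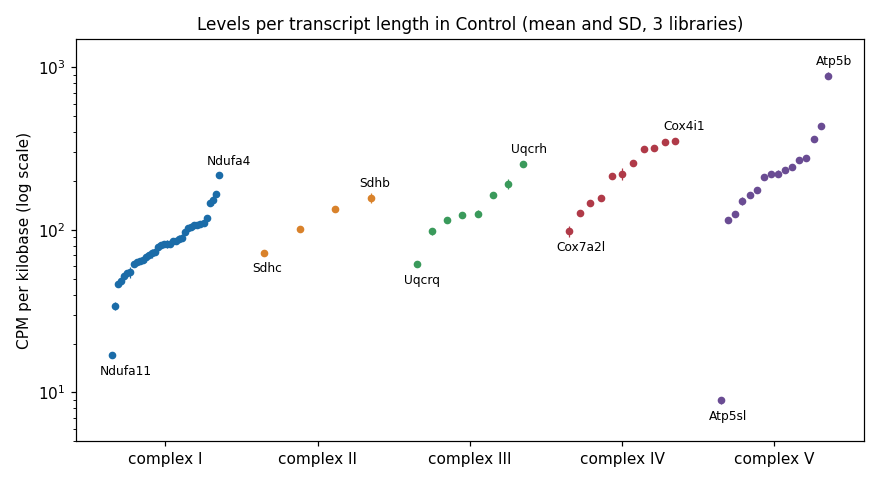
Level per kilobase of transcript in Control for the 75 genes averaging 10 CPM or more, on a log axis, ordered within each complex; points are means and bars SDs of 3 libraries. Most complex I genes lie below the complex IV and V genes, whose medians are 222 CPM per kilobase each.

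LCA lowered the respiratory chain genes as a group. Of the 79 tested, 49 were called lower and 2 higher than in Control, where a call is a Benjamini-Hochberg adjusted p under 0.05 in edgeR's quasi-likelihood test over 13044 genes. The background was 18.8% of all tested genes called lower and 17.7% called higher. Of the 2 higher, Cox6a2 passed the minimum on counts only through its LCA libraries. The median log2 fold change was -0.16 over the 79 genes and 0.01 over all tested genes, so the falls were shallow. In all, 68 of the 79 had a negative log2 fold change, and LCA and Control libraries did not overlap for 55 of the 79, against 47.7% of all tested genes. The genes made up 0.967% ± 0.0218 of the counts with LCA and 1.05% ± 0.0248 in Control (SD, n = 3 each). The LCA and Control libraries did not overlap in this share, whose highest value with LCA was 0.981% and lowest in Control 1.04%.

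The 5 complexes took unequal parts in this. With LCA, complex IV had 12 of 14 tested genes lower and a median log2 fold change of -0.22. Complex V had 13 of 17 lower (median -0.16), complex III 5 of 8 (median -0.19), complex II 3 of 4 (median -0.18) and complex I 16 of 36 (median -0.11). No other acid called more than 9 genes of a single complex lower than Control. The median of each complex, taken per library, lay below all 3 Control libraries in all 3 LCA libraries, in each of the 5 complexes.

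**Figure D2:**
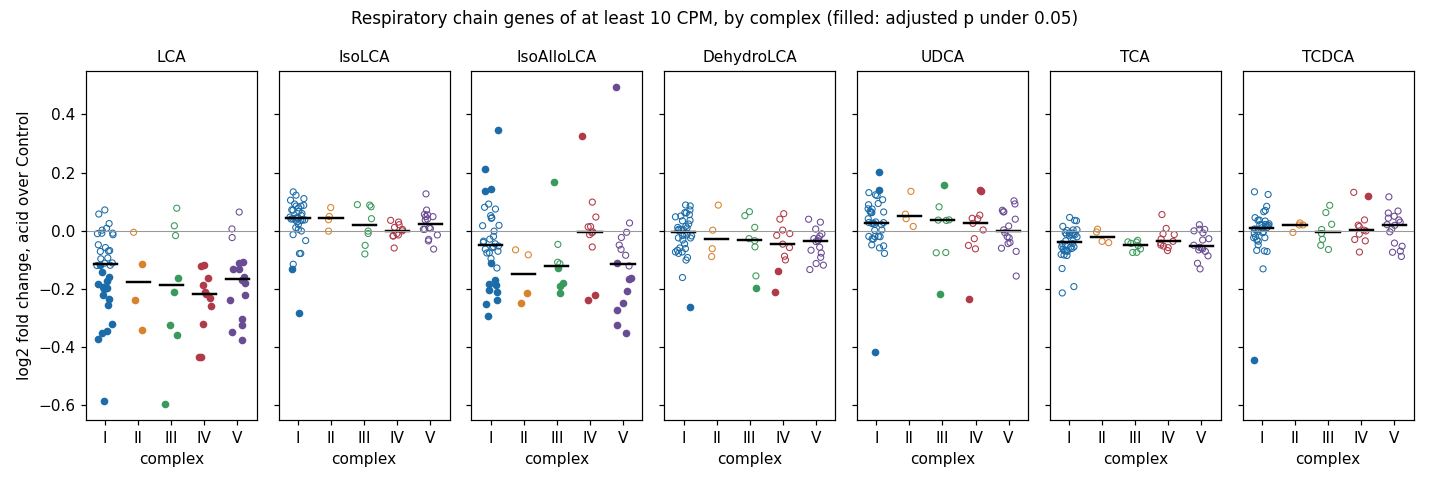
Log2 fold change of each acid over Control for the 75 genes averaging 10 CPM or more, by complex; each point is a gene, filled where the adjusted p is under 0.05, and bars are medians. With LCA nearly all points lie below 0, with Uqcrh and Ndufv3 lowest, whereas with IsoAlloLCA points lie on both sides.

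**Figure D3:**
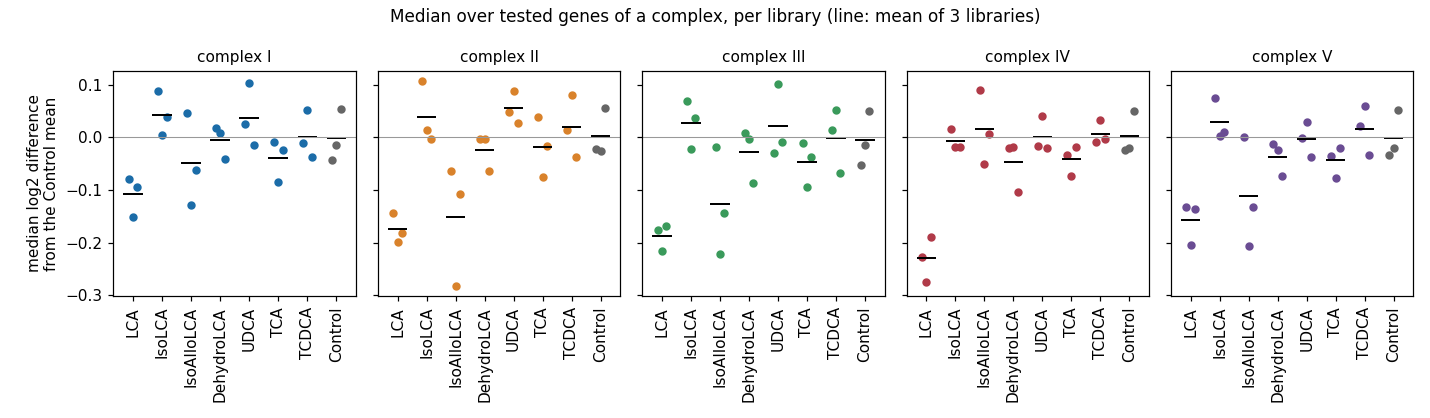
Median over the tested genes of a complex of the log2 difference from the Control mean, for each of the 24 libraries; each point is a library and bars are means of 3. The 3 LCA points lie below the 3 Control points in every complex, and the IsoAlloLCA libraries are spread more widely than those of the other groups in every complex.

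Within complex I, the catalytic core and the accessory subunits differed in their counts with LCA. None of the 7 core genes was called, with a median log2 fold change of -0.01, whereas 16 of 29 accessory genes were lower (median -0.14). Median transcript length also differed, at 1530 bases for the core genes and 629 bases for the accessory genes, and after the length correction described later 0 core and 8 accessory genes were lower. Ndufv1, which binds NADH, had a log2 fold change of 0.00 (95% interval -0.09 to 0.09), and the iron-sulfur subunit Ndufs1 had -0.01 (95% interval -0.09 to 0.08). Ndufv2 was closest to a call among the core, at -0.10 with an adjusted p of 0.0515 in edgeR. At an unadjusted p under 0.05, 56 of the 79 genes passed, 54 of them lower. The share of all tested genes at this unadjusted threshold was not counted.

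Ndufv3, an accessory subunit of the NADH-oxidising arm of complex I, fell furthest in that complex. It is on chromosome 17, from 31520115 to 31531325 on the plus strand (mm10). Its level was 57.6, 56.1 and 57.6 CPM with LCA, against 81.9, 89.1 and 86.2 CPM in Control. The groups did not overlap, and the log2 fold change was -0.59 ± 0.05 (SE, edgeR adjusted p = 6.45e-10). The small membrane subunits Ndufa1 and Ndufb3 followed at -0.37 and -0.35.

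In complex II, both membrane anchors and 1 of the 2 hydrophilic subunits were called lower with LCA. Sdhd, an anchor subunit, stood at 145, 127 and 134 CPM with LCA and averaged 172 ± 6.48 CPM in Control (SD, n = 3). The libraries did not overlap, and the log2 fold change was -0.34 ± 0.06 (edgeR adjusted p = 4.84e-05). Sdhc, the other anchor, was lower by -0.24, and Sdha, the flavoprotein that oxidises succinate, by -0.11 (edgeR adjusted p = 0.0335). Sdhb, the iron-sulfur subunit, averaged 167 ± 2.26 CPM with LCA and 168 ± 11.1 CPM in Control (SD, n = 3 each), a log2 fold change of -0.01 that was not called (95% interval -0.11 to 0.10).

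Complex III held the largest fall of all 75 genes of at least 10 CPM. Uqcrh, the acidic hinge subunit beside cytochrome c1 (chromosome 4, 116066965 to 116075070, minus strand, mm10), stood at 94.7, 85.4 and 94.7 CPM with LCA, against 133, 140 and 142 CPM in Control. The groups were well apart, and the log2 fold change was -0.60 ± 0.05 (SE, edgeR adjusted p = 1.57e-09). The small accessory subunits Uqcr10 and Uqcr11 fell by 0.36 and 0.32 on the log2 scale, and Uqcrfs1, the Rieske iron-sulfur protein, by 0.21. The core proteins Uqcrc1 and Uqcrc2 had log2 fold changes of 0.02 (95% interval -0.07 to 0.11) and -0.02.

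Among the complex IV genes of at least 10 CPM, all 11 were lower with LCA. Cox6b1, a subunit at the intermembrane face of cytochrome c oxidase, stood at 118, 115 and 120 CPM with LCA and averaged 159 ± 6.48 CPM in Control (SD, n = 3). The libraries did not overlap, and the log2 fold change was -0.43 ± 0.04 (edgeR adjusted p = 6.80e-09). Cox7b was lower by -0.44, Cox7a2 by -0.32, Cox5a by -0.22, Cox4i1 by -0.12 and Cox5b by -0.12. Cox5b kept its call under 8 of 15 alternative settings and Cox7a2l (log2 fold change -0.16) under 6 of 15.

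In complex V, the genes of the catalytic head, the peripheral stalk and the small membrane subunits were called lower with LCA, and those of the c ring were not, except for Atp5g3. All 5 genes of the F1 head were called lower, from -0.13 to -0.30, as were all 4 peripheral stalk genes. Atp5b averaged 1489 ± 42.6 CPM with LCA and 1661 ± 85.9 CPM in Control (SD, n = 3 each), with a log2 fold change of -0.16 ± 0.05 (edgeR adjusted p = 0.00846). The 3 small membrane subunits Atp5j2, Atp5l and Atp5k fell by 0.37, 0.35 and 0.32 on the log2 scale. Of the 3 genes for the proton-carrying c subunit, Atp5g3 was called lower (-0.24), while Atp5g1 (0.06) and Atp5g2 (0.01) were not called. Atp5s, outside the structural subunits, was higher by 0.43 at means of 3.74 CPM with LCA and 2.78 CPM in Control, though its libraries overlapped.

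**Figure D4:**
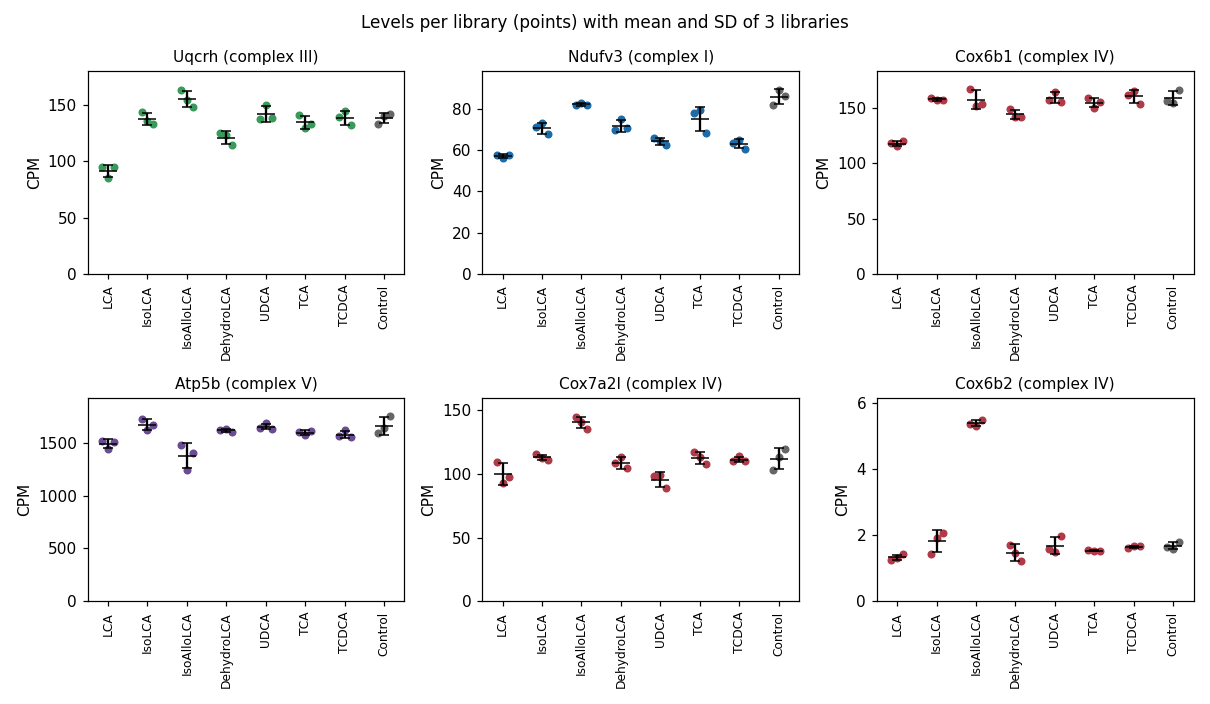
CPM of 6 genes in each of the 24 libraries, by group, with the mean and SD of 3 libraries. Uqcrh and Cox6b1 are lowest with LCA, Ndufv3 is lower than Control with LCA, UDCA and TCDCA among others, Atp5b is lowest with IsoAlloLCA, and Cox7a2l and Cox6b2 are highest with IsoAlloLCA.

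The falls with LCA were deeper for short transcripts. The median transcript length was 696 bases for the 84 genes and 2744 bases for all tested genes. Across the 75 genes of at least 10 CPM, the LCA log2 fold change and the log2 transcript length had a Pearson r of 0.36 and a Spearman rho of 0.45. These points are genes that share the same 6 libraries, not independent replicates. Among genes of at least 10 CPM and under 600 bases, 79.3% of 29 respiratory chain genes and 42.3% of 130 other genes were called lower with LCA. From 600 to under 1000 bases the shares were 61.9% of 21 and 39.1% of 412, from 1000 to under 2000 bases 50% of 20 and 27.5% of 1871, and from 2000 bases 40% of 5 and 18.9% of 6306. Fewer genes were called lower as length grew, inside the respiratory chain and outside it.

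Removing a length trend from each library left 34 genes lower with LCA, all 34 of them among the 49. The median was then -0.10. Of all 13044 tested genes, 2396 were lower and 2394 higher after this correction. Complex I then had 8 genes lower and 3 higher (median -0.03), complex II 3 lower (median -0.15), complex III 4 lower (median -0.11), complex IV 9 lower and 1 higher (median -0.13) and complex V 10 lower and 2 higher (median -0.14). Uqcrh, Ndufv3, Cox6b1, Cox7b and Atp5j2 kept their calls under all 15 alternative settings, and in all 29 of the 49 genes did. The share of library reads that fell in exons was 80.7% ± 1.52 with LCA and 82.6% ± 1.37 in Control (SD, n = 3 each), and the groups overlapped. With that share as a covariate, 41 of the 49 genes were still lower and the median was -0.11. Of all 13044 tested genes, 2445 were lower with this covariate. Within both groups, the library with the lowest exon share also had the lowest median log2 difference from the Control mean. These were LCA library 2 (79.3%, -0.22) and Control library 1 (81.1%, -0.04). The part of exon share in the falls with LCA was not tested.

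**Figure D5:**
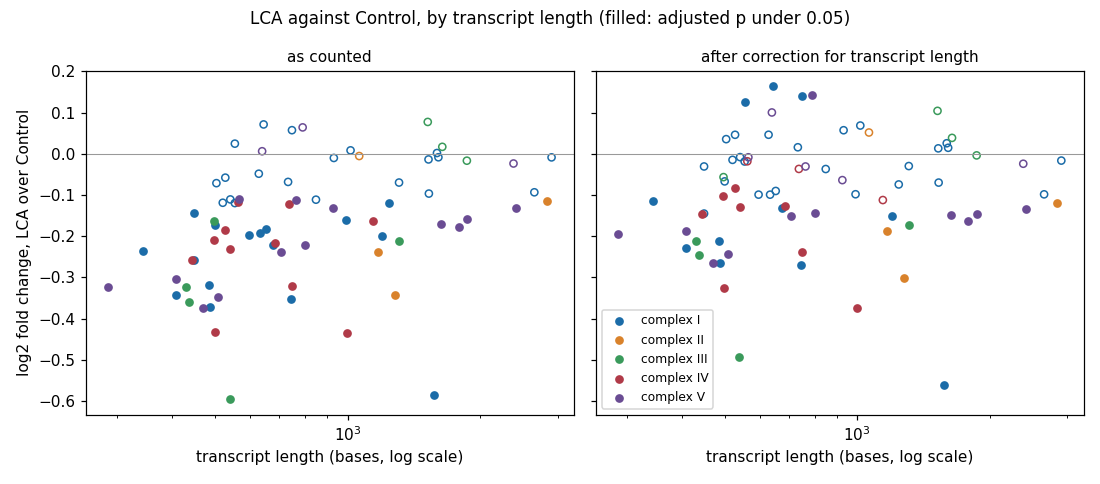
Log2 fold change of LCA over Control against transcript length on a log axis, for the 75 genes of at least 10 CPM, coloured by complex and filled where the adjusted p is under 0.05; left as counted, right after a length trend was removed from each library. On the left the short transcripts lie lower, and on the right complexes II, IV and V keep more of their falls than complex I.

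NRF1, GABP and YY1 are known regulators of nuclear genes for mitochondrial proteins, and their letters were looked for in the promoters. Sequences are shown for Uqcrh, Ndufv3 and Cox6b1, which fell far with LCA, and for Uqcrc1, which was not called. RefSeq promoter windows (GRCm38.p6, 250 bases before to 50 bases after a start) were found for 69 of the 84 genes. The NRF1 letters (GCGC, then A and any base, then GCGC), like the other motifs searched on both strands, were in 23.2% of the 69 and in 4.6% of all 32851 windows. The ETS letters CCGGAAG, bound by the GABP factor, were in 21.7% and 8.86%, and the YY1 letters AAGATGGC in 14.5% and 2.75%. No window held overlapping ETS and YY1 letters. Among genes lower with LCA (43 windows) and genes not called (23 windows), NRF1 letters were in 20.9% and 30.4%, ETS letters in 25.6% and 17.4% and YY1 letters in 14% and 17.4%. A match describes letters only. The 150 bases before the RefSeq start are given 5′ to 3′ along the gene's strand for Uqcrh (chr4:116075071-116075220, minus), Cox6b1 (chr7:30626115-30626264, minus, whose RefSeq start lies 37 bases from the deposited one), Ndufv3 (chr17:31519965-31520114, plus) and Uqcrc1 (chr9:108936498-108936647, plus), with ETS letters in capitals.
Uqcrh: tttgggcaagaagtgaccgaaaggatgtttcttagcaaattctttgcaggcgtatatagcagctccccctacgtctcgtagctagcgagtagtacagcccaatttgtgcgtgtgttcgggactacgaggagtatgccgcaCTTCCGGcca
Cox6b1: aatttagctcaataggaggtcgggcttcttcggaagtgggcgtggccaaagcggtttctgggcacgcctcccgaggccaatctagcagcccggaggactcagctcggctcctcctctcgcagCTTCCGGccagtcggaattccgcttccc
Ndufv3: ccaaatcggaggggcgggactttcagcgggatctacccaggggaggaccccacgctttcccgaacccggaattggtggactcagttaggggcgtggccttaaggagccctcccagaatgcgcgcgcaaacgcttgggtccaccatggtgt
Uqcrc1: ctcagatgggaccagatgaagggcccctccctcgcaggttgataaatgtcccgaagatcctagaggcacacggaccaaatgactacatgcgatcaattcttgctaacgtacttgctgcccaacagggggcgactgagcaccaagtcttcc
Uqcrh and Cox6b1 each hold the ETS letters on the opposite strand within these 150 bases, and Ndufv3 and Uqcrc1 hold none of the 3 motifs there. The Cox6b1 letters lie in the last 37 printed bases, past the deposited start at 30626151 and so inside the deposited transcript. In the full window of 300 bases Uqcrc1 does hold the NRF1 letters, though not within the printed stretch, and Ndufv3 holds none.

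Genes around the respiratory chain were called in both directions with LCA. Of the subunits that the name pattern leaves out, Cycs, which encodes cytochrome c, and Usmg5, a small ATP synthase subunit, were lower by -0.34 each, and 3 of 5 were not called. Among assembly factors, 6 of 16 for complex I were higher and 2 lower, 3 of 6 for complex III were higher, and 5 of 24 for complex IV were higher and 3 lower. For complex II 1 of 4 was higher, and for complex V 1 of 4 was higher and 1 lower. The complex III factors Bcs1l (0.39) and Ttc19 (0.27) and the complex I factor Ndufaf4 (0.45) rose with LCA. Of 19 genes for mitochondrial transcription and biogenesis, 8 were higher and 1 lower, led by the coactivators Pprc1 (0.46) and Ppargc1b (0.37) and the mitochondrial RNA polymerase Polrmt (0.30). The tricarboxylic acid cycle genes had 1 of 15 higher and 2 lower with a median of -0.02. These counts stand beside 17.7% of all tested genes higher and 18.8% lower.

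IsoAlloLCA changed the respiratory chain genes in both directions. Against Control, 25 of 79 were lower and 9 higher, with a median log2 fold change of -0.06. The background was 27.8% of tested genes lower and 30.6% higher, so the lower calls were near the background share and the higher calls below it. Complex V had 8 of 17 lower and 2 higher (median -0.11). The 2 higher were Atp5s and Atp5sl, which are not structural subunits, and no structural subunit gene of complex V was called higher. Complex I had 9 of 36 lower and 4 higher (median -0.05) and complex III 4 of 8 lower and 1 higher (median -0.12). Complex II had 2 of 4 lower (median -0.15) and complex IV 2 of 14 lower and 2 higher (median 0.00).

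The IsoAlloLCA libraries differed in exon share and in their respiratory chain level together. Libraries 1, 2 and 3 had 81.2%, 75.6% and 78.1% of their reads in exons, and respiratory chain genes took 1.05%, 0.963% and 1.01% of counts. In Control the exon share was 81.1% to 83.8%. This was not particular to IsoAlloLCA. In every group, the library with the lowest exon share had the lowest median log2 difference from the Control mean over the tested respiratory chain genes. Examples are UDCA library 3 (80.4%, -0.02) and TCA library 2 (80.7%, -0.08). With exon share as a covariate, 9 genes were lower and 25 higher, and the median was 0.07. Of all 13044 tested genes, 3245 were then lower and 3438 higher. Complex I then had 2 genes lower and 14 higher with a median of 0.07, and the medians of complexes III and V were 0.04 and 0.05. Scaling by library totals alone gave 17 higher, beside 4998 of all 13044 tested genes. Without IsoAlloLCA library 2, 20 were lower, and without Control library 1, 6 were higher. The median was -0.02 without IsoAlloLCA library 2, -0.10 without IsoAlloLCA library 1 and -0.09 without Control library 1. Without IsoAlloLCA library 2 the medians of complexes I to V were -0.01, -0.08, -0.07, 0.04 and -0.05, and without IsoAlloLCA library 1 they were -0.10, -0.20, -0.18, -0.03 and -0.17. The part of exon share in these results was not tested. The respiratory chain genes of the name pattern that are named next kept their calls under all 15 alternative settings, exon share included, unless stated. This does not extend to genes outside the pattern, such as Cycs and Cs.

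The falls with IsoAlloLCA included catalytic subunits of the ATP synthase and complex I. Atp5a1, the alpha subunit, stood at 904, 780 and 860 CPM with IsoAlloLCA and averaged 1062 ± 45.6 CPM in Control (SD, n = 3). The groups did not overlap, and the log2 fold change was -0.32 ± 0.04 (edgeR adjusted p = 5.35e-07), or -0.19 with exon share as a covariate. Atp5g1, a c subunit gene that LCA left uncalled, stood at 76.1, 66.7 and 73.0 CPM, against an average of 91.7 ± 2.99 CPM in Control (log2 fold change -0.35 ± 0.05, edgeR adjusted p = 3.09e-06). Ndufs8, an iron-sulfur core subunit, stood at 45.6, 41.1 and 43.9 CPM, against 53.3 ± 3.08 CPM in Control, and was lower by -0.29. With exon share as a covariate, the log2 fold changes were -0.24 for Atp5g1 and -0.15 for Ndufs8. Atp5b (-0.27), Sdha (-0.25), Cox5a (-0.24) and Cox5b (-0.22) were lower as well, while Uqcrc1 (-0.18), Ndufs1 (-0.18) and Sdhb (-0.21) were called lower only without the covariate.

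The rises with IsoAlloLCA were led by accessory genes. Ndufa6, an accessory subunit of complex I, stood at 61.8, 57.5 and 55.1 CPM with IsoAlloLCA and averaged 45.8 ± 2.17 CPM in Control (SD, n = 3). The groups did not overlap, and the log2 fold change was 0.35 ± 0.05 (edgeR adjusted p = 4.60e-06). Cox7a2l, which joins complexes III and IV into supercomplexes (chromosome 17, 83501917 to 83514333, minus strand, mm10), stood at 145, 141 and 136 CPM, against 112 ± 8.23 CPM in Control (log2 fold change 0.33 ± 0.06, edgeR adjusted p = 1.71e-05). Cox6b2, a testis form of Cox6b1, stood at 5.35, 5.29 and 5.47 CPM, against 1.64, 1.58 and 1.80 CPM in Control, and had the largest rise (1.68 ± 0.13, edgeR adjusted p = 3.47e-11). It made up 2.87% ± 0.16 of the CPM per kilobase of the 2 Cox6b genes with IsoAlloLCA and 0.901% ± 0.0231 in Control (SD, n = 3 each). Atp5sl, an assembly protein of complex I, was higher by 0.50 ± 0.07. Uqcrh, the gene LCA lowered most, was higher by 0.17 ± 0.05 (edgeR adjusted p = 0.00607), and lost this call without Control library 1 (0.13, adjusted p = 0.0578).

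Cycs and some genes of the tricarboxylic acid cycle were lower with IsoAlloLCA. Cycs was lower by -0.69 ± 0.06 (edgeR adjusted p = 3.48e-10) and Cyc1, the cytochrome c1 gene of complex III, by -0.28. Of 15 tricarboxylic acid cycle genes 7 were lower, among them Idh3a (-0.49) and Cs (-0.40), the citrate synthase gene. Of 19 transcription and biogenesis genes 12 were lower and 4 higher, led by the host cell factor Hcfc1 (-0.39), the mitochondrial helicase Twnk (-0.46) and Ppargc1b (-0.71). Assembly factors had 11 of 24 lower for complex IV, 6 of 16 for complex I, 1 of 6 for complex III, 1 of 4 for complex II and 0 of 4 for complex V, with 1 higher for each of the 5. The share of all tested genes lower was 27.8%. Whether the calls of these genes outside the name pattern hold under the alternative settings, exon share included, was not tested.

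The other 5 acids called few of these genes. IsoLCA lowered 2 of 79 and raised 0 (background 6.12% lower and 3.73% higher, median log2 fold change 0.04). At an unadjusted p under 0.05, 2 were lower and 3 higher with IsoLCA, and DESeq2 called 0 higher. DehydroLCA lowered 4 and raised 0 (background 3.41% and 2.41%, median -0.02), with 9 lower and 1 higher at an unadjusted p under 0.05 and 0 higher by DESeq2. UDCA lowered 3 and raised 5 (background 10.7% and 9.18%, median 0.03), and TCDCA lowered 1 and raised 1 (background 8.04% and 5.08%, median 0.01). TCA called 0 in either direction (background 0.353% lower and 0.0843% higher, median -0.04). At an unadjusted p under 0.05, 4 genes were lower and 0 higher with TCA in edgeR, and DESeq2 called 1 lower. By DESeq2, 424 of 18792 genes were higher with IsoLCA, 280 higher with DehydroLCA and 83 lower with TCA. All tested genes were not counted at the unadjusted threshold, so the unadjusted counts have no background share beside them.

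Ndufv3 was the gene most widely shared. The log2 fold change of Ndufv3 was negative with all 7 acids, as it was for other genes such as Atp5a1, Cox7b and Uqcrfs1. Ndufv3 was called lower with 5 acids, and no other gene was called lower with more than 3. Its level was 71.0, 72.9 and 67.7 CPM with IsoLCA, 69.5, 74.9 and 70.4 CPM with DehydroLCA, 65.9, 64.3 and 62.6 CPM with UDCA and 63.6, 64.9 and 60.5 CPM with TCDCA, against 81.9, 89.1 and 86.2 CPM in Control. None of these 4 groups overlapped Control. The log2 fold changes were -0.28 ± 0.05 with IsoLCA (edgeR adjusted p = 0.000125), -0.26 ± 0.05 with DehydroLCA (0.000807), -0.42 ± 0.05 with UDCA (5.67e-07) and -0.45 ± 0.05 with TCDCA (3.07e-07), and these calls were kept under all 15 alternative settings. With TCA the level was 77.7, 79.1 and 68.4 CPM (log2 fold change -0.19, adjusted p = 0.0684), and with IsoAlloLCA 81.9, 82.8 and 81.5 CPM (-0.06, adjusted p = 0.249). In order of mean level the groups ran LCA, TCDCA, UDCA, IsoLCA, DehydroLCA, TCA, IsoAlloLCA and Control. These comparisons share the 3 Control libraries.

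The remaining calls of the other 5 acids were small. DehydroLCA lowered Uqcrh by 0.20, at 125, 124 and 114 CPM against 133, 140 and 142 CPM in Control, and also Cox7b (-0.21) and Cox6b1 (-0.14). Uqcrh lost its call without DehydroLCA library 3 or Control library 2 or 3, and Cox6b1 without DehydroLCA library 2 or 3 or Control library 3. With exon share as a covariate 9 genes were lower with DehydroLCA, beside 762 of all 13044 tested genes. UDCA raised Ndufa5 (0.20), Uqcrb (0.16), Ndufs1 (0.14), Cox5a (0.14) and Cox5b (0.14) and lowered Cox7a2l (-0.23) and Uqcr10 (-0.22). Uqcr10 lost its call without UDCA library 1 or Control library 3. Without UDCA library 2, 0 genes were called higher, and each of the 5 rises was also lost without at least 1 Control library. With exon share as a covariate 26 genes were called higher, and after the length correction 10. Of all 13044 tested genes, 2019 and 1493 were called higher under these 2 settings. TCDCA raised Cox5b by 0.12, a call lost when any 1 TCDCA library or Control library 2 or 3 was left out. With TCDCA, 8 genes were higher with exon share as a covariate, beside 1184 of all 13044 tested genes. IsoLCA lowered Ndufa10, a complex I accessory subunit, by 0.13, and this was lost without IsoLCA library 1 or 3 or Control library 3.

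In all, 5 pairs of related acids were compared at matched dose and time, each adjusted over all tested genes. IsoLCA against LCA had 50 of 79 genes higher and 1 lower (background 15.8% higher and 14.6% lower), with a median log2 fold change of 0.19. This median was 0.11 after the length correction and 0.11 with exon share as a covariate. Complex IV had 11 of 14 genes higher, complex V 12 of 17, complex III 5 of 8, complex II 3 of 4 and complex I 19 of 36. Uqcrh averaged 138 ± 5.69 CPM with IsoLCA and 91.6 ± 5.39 CPM with LCA (SD, n = 3 each), a log2 fold change of 0.59 ± 0.05 (edgeR adjusted p = 1.16e-08). Cox6b1 (0.42) and Ndufa4 (0.39) followed. Of the complex I core genes, Ndufv2 was called higher, a call kept after the length correction and lost with exon share as a covariate. Ndufv1 (0.04) and Ndufs8 (0.02) were not called.

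UDCA against LCA gave 50 genes higher and 2 lower (background 14.8% and 12%, median 0.17), led by Uqcrh (0.63 ± 0.05, edgeR adjusted p = 1.31e-09), Cox6b1 (0.44) and Atp5k (0.39). The complex I core genes Ndufs1 and Ndufv2 were among the higher and kept their calls under all 15 alternative settings. DehydroLCA against LCA gave 35 higher and 1 lower (background 10.3% and 7.49%, median 0.13), led by Uqcrh (0.40), Ndufa1 (0.35) and Ndufv3 (0.33). The 35 became 18 without LCA library 2 and 20 after the length correction, which called 1256 of all 13044 tested genes higher. These 3 comparisons share the LCA libraries. Cox6a2, which passed the minimum on counts only through its LCA libraries, was lower in each of them. Atp5s was the other gene lower with UDCA.

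IsoAlloLCA against IsoLCA gave 32 genes lower and 9 higher (background 28.1% and 31.7%, median -0.09). Atp5g1 was lower by -0.48 ± 0.05 (edgeR adjusted p = 2.26e-08), at 71.9 ± 4.79 CPM with IsoAlloLCA and 100.1 ± 2.08 CPM with IsoLCA (SD, n = 3 each). Ndufs8 (-0.32) and Atp5f1 (-0.32) followed, and Atp5sl (0.53), Cox7a2l (0.31) and Ndufa6 (0.24) were the largest rises among genes of at least 10 CPM. With exon share as a covariate 11 were lower and 23 higher, and the median was 0.06. Of all 13044 tested genes, 2974 were then lower and 3247 higher. Without IsoAlloLCA library 2, 21 were lower and the median was -0.06. The median was -0.06 without IsoLCA library 1 and -0.15 without IsoAlloLCA library 1. TCA against TCDCA gave 1 higher and 1 lower (background 2.65% and 0.958%, median -0.04). Ndufv3 was higher by 0.25 ± 0.05 with TCA (edgeR adjusted p = 0.00206), and Ndufb4, an accessory subunit of complex I, was lower by -0.20, a call lost under 8 of 15 alternative settings. Uqcrh did not pass between TCA and TCDCA, with a log2 fold change of -0.04.

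The isoforms restricted to other tissues stayed rare. Cox6a2, the muscle form of Cox6a1, had 36, 38 and 37 counts in the LCA libraries and 6, 4 and 4 counts in the Control libraries, with a log2 fold change of 2.80 ± 0.40 (edgeR adjusted p = 5.33e-06). Outside LCA, only IsoAlloLCA library 2 (17) and DehydroLCA library 3 (22) held more than 8 counts. The gene passed the minimum on counts only through its LCA libraries, so this p is not independent support for a rise. Cox6a2 made up 0.496% of the CPM per kilobase of the 2 Cox6a genes with LCA and 0.0621% in Control. Cox7a1, the muscle form of Cox7a2, had 15, 16 and 15 counts with LCA and 17, 27 and 35 in Control, a log2 fold change of -0.93 that lost its call without LCA library 1 and without Control library 2 or 3. Among the genes for the c subunit of the ATP synthase, shares were likewise taken of the CPM per kilobase of transcript. Atp5g1 gave 15.6% to 15.8% with IsoAlloLCA, 19.8% to 20.1% with LCA and a mean of 17.7% ± 0.306 (SD, n = 3) in Control. The 3 groups did not overlap. Reads of near-identical paralogs and of processed pseudogenes may have been divided, so these shares are uncertain.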

How the data were processed

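RNA of 24 libraries (8 groups of 3) was measured by RNA-seq. The authors deposited expected counts per gene: 1 table of 24537 genes in which HOMER summed reads in exons (mm10, raw values), per the file headers. STAR, DESeq2 and GRCm38 appear in the submitters' processing notes with no version. Values come in steps of 0.5 (29.43% are not whole) and were rounded, 0.5 upward. The design had assumed whole counts, and the same count test was used. No strand option is given in the sources used here, so overlapping genes cannot be told apart.

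The model was fitted with edgeR 4.0.16 under R 4.3.3 (filterByExpr, TMM factors 0.971 to 1.05, quasi-likelihood fit of all 24 libraries, 1 coefficient per group). Calls are Benjamini-Hochberg adjusted p under 0.05 over the 13044 genes of a comparison. The SE is the absolute log2 fold change divided by the square root of F, so it rests on the spread over 24 libraries (16 residual degrees of freedom, moderated). DESeq2 1.42.0 was an alternative, with other normalizations, no filter, a replicate block, exon share as a covariate, a length correction, only the 2 groups, and leaving out each library; a length and GC correction was added after seeing the data. Counting error is small at these depths for genes of at least 10 CPM. It is larger for rare genes such as Cox6a2, with 4 to 6 counts in the Control libraries. Chi-square per degree of freedom between replicates was 2.83 to 18.7, above sampling noise, so none was counted as a duplicate.

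The genes and lists were chosen with earlier results of these data known. Named genes are catalytic or core subunits, isoform sets, the 3 largest called rises and falls of at least 10 CPM per comparison, up to 3 called genes per complex against its median, and up to 3 called genes of each other list by adjusted p. Ndufa1, Ndufb3, Atp5j2, Atp5k, Atp5l, Uqcr10 and Uqcr11 were named with LCA after their values were seen.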

Additional observations from a re-analysis of the deposited data

How the results depend on the processing

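The 49 genes lower with LCA numbered 34 to 50 under all alternatives, and 34 to 49 with single libraries left out. With library totals as the only scaling they numbered 39, beside 1973 of all 13044 tested genes. All tested genes were not counted with single libraries left out. Where a value below differs from the report, the cause was not tested.

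With exon share as a covariate, 5 genes were higher with LCA (median -0.1054), 1 higher with IsoLCA, 25 higher and 9 lower with IsoAlloLCA (median 0.0671), 9 lower with DehydroLCA, 26 higher with UDCA, 1 lower with TCA and 8 higher with TCDCA. IsoLCA against LCA had 2 lower (median 0.1065), IsoAlloLCA against IsoLCA 23 higher and 11 lower (median 0.0596, a change of sign), and TCA against TCDCA 7 lower. Over all 13044 tested genes, these counts were 1552 lower, 3247 higher and 2974 lower, and 424 lower. The medians of complexes I, III and V also changed sign, to 0.0747, 0.0360 and 0.0471 for IsoAlloLCA against Control and to 0.0585, 0.0076 and 0.0305 for IsoAlloLCA against IsoLCA. Single genes that changed sign for IsoAlloLCA against Control were Atp5l (0.1448), Cox7a2 (0.1491), Atp5j2 (0.0062), Cox6b1 (0.0897), Uqcrc2 (0.0182), Ndufs4 (0.1575), Ndufa4 (0.1834) and Atp5c1 (0.0392). For IsoAlloLCA against IsoLCA they were Atp5l (0.1606), Cox7a2 (0.1721), Atp5e (0.1392), Sdhc (0.0234), Uqcrq (0.0139), Ndufb5 (0.1596), Atp5j2 (0.0305), Cox6b1 (0.1169), Ndufc2 (0.1201), Uqcrc2 (0.0013), Ndufa9 (0.0563), Ndufv1 (0.0092), Ndufa4 (0.1447), Cox6a1 (0.1323), Atp5c1 (0.0082) and Atp5k (0.0212).

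The length correction gave 6 higher with LCA (median -0.098), 1 higher with IsoLCA, 10 higher with UDCA and 3 higher with TCDCA. IsoLCA against LCA had 2 lower (median 0.1099), and DehydroLCA against LCA 20 higher and 4 lower (median 0.0734). Over all 13044 tested genes, 2394 were higher with LCA, 636 with IsoLCA, 1493 with UDCA and 916 with TCDCA. IsoLCA against LCA had 1712 lower, and DehydroLCA against LCA 1256 higher and 967 lower. The length and GC correction, chosen after seeing the data, gave 6 higher with LCA (median -0.1021), 1 with IsoLCA, 10 with UDCA and 3 with TCDCA. Lower genes numbered 2 for IsoLCA against LCA (median 0.1162), 2 for DehydroLCA against LCA (median 0.0742) and 2 for TCA against TCDCA. Over all 13044 tested genes, the length and GC correction gave 2445 higher with LCA, 689 with IsoLCA, 1503 with UDCA and 952 with TCDCA. The lower genes of the 3 pairs then numbered 1737, 1026 and 218. Library totals gave 17 higher with IsoAlloLCA, 3 higher with TCDCA, 14 higher for IsoAlloLCA against IsoLCA and 2 lower for DehydroLCA against LCA. Over all 13044 tested genes, these counts were 4998, 1043, 4957 and 1377.

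Without the filter, 1 was lower with IsoLCA, 3 higher with UDCA, 1 lower with TCA, 0 higher with TCDCA, 1 lower for UDCA against LCA and 0 lower for TCA against TCDCA. Over all 18792 genes of that fit, these counts were 781, 936, 104, 604, 1576 and 126. With only the 2 groups, 1 was lower with IsoLCA, 2 higher with TCDCA, 1 lower for UDCA against LCA and 2 lower for TCA against TCDCA. Over all genes tested there, these counts were 588 of 12581, 871 of 12540, 1617 of 12626 and 218 of 12546. DESeq2 gave 1 lower with TCA and 0 lower for IsoLCA, DehydroLCA and UDCA against LCA (it gives Cox6a2 no adjusted p there) and for TCA against TCDCA. Over the 18792 genes of that fit, these counts were 83, 1706, 926, 1424 and 137.

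Leaving out single libraries gave 1 to 2 higher with LCA, 1 to 2 lower with IsoLCA, 2 to 4 lower with DehydroLCA, 0 to 4 higher with UDCA, 0 to 1 lower with TCA and 0 to 1 higher with TCDCA. It gave 1 to 2 lower for IsoLCA against LCA, 21 to 43 lower for IsoAlloLCA against IsoLCA, 18 to 34 higher and 1 to 2 lower for DehydroLCA against LCA, 1 to 2 lower for UDCA against LCA and 0 to 1 lower for TCA against TCDCA. The medians ran from -0.19 to -0.12 with LCA, -0.10 to -0.02 with IsoAlloLCA and -0.15 to -0.06 for IsoAlloLCA against IsoLCA, and those of UDCA and TCDCA against Control took either sign.

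The labels do not say that replicate numbers mark a shared source, and not every pair of same-numbered libraries correlated above 0.1, so the numbers were not used as pairs. Correlations ran from -0.33 to 0.40 (median 0.04) between same-numbered libraries, against a median of -0.01 between others. In all, 15 of 24 libraries correlated best with their own number, a hint of pairing from the data and not from the design. The replicate block gave 1 lower with TCA and 1 lower for UDCA against LCA, beside 62 and 1687 of all 13044 tested genes. It moved no other count of calls by over 1.5 times.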
